A study of Mus musculus with 8 samples.

Results

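The genes described here encode the conjugating enzymes of phase II metabolism, chosen by symbol: every row of the expression table whose name belongs to the Ugt1, Ugt2, Ugt3 or Ugt8, Gst, Mgst or Sult families. The rule gave 75 of the 52195 genes in the table: 22 UDP-glycosyltransferases (UGT), 23 soluble glutathione transferases (soluble GST), 3 microsomal glutathione transferases (MGST) and 27 sulfotransferases (SULT), of which 7 are annotated as pseudogenes. The data are bulk RNA-seq libraries of 4 whole organs (liver, small intestine, kidney and lung) taken from untreated C57BL/6J mice (C57BL/6 in the labels), male by the study's methods and aged 6 to 10 weeks. There were 2 libraries per tissue and 8 in all, made from polyadenylated RNA, and the replicates of a tissue came from separate mice. Each mouse gave all 4 organs, but the labels do not say which libraries share a mouse. Levels are in FPKM, a unit of sequenced fragments that corrects for the length of the gene and the size of the library.

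Phase II enzymes attach a polar group to a drug, a dietary compound, a hormone or a waste product, which makes it easier to excrete in bile or urine. UGT enzymes sit in the endoplasmic reticulum and transfer a sugar, mostly glucuronic acid from UDP-glucuronate. GST enzymes join the thiol of glutathione to reactive, electrophilic compounds, and SULT enzymes move a sulfuryl group from the donor PAPS to hydroxyl or amino groups. Liver is the organ best known for all 3 reactions, while kidney and intestine hold large sets of their own and lung meets inhaled compounds.

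The tissue labels were checked against defining markers. Hepatocyte markers summed to at least 33629 FPKM in the liver libraries and to at most 152.9 elsewhere, alveolar type 2 markers to at least 13181 in lung and at most 18.1 elsewhere, proximal tubule markers to at least 757.5 in kidney and at most 5.31 elsewhere, and enterocyte markers to at least 5197 in small intestine and at most 56.6 elsewhere. The small intestine libraries also held pancreatic acinar markers, 5 of 5 called higher there, with a summed level between 587 and 1264 FPKM against at most 2.05 in the other libraries, and their part in the small intestine values below was not tested. The number of reads counted on genes, recovered from the steps of the deposited values, was between 9164187 and 21444675 per library. A count of 3 reads on a gene with 1 kb of exons is an FPKM between 0.140 and 0.327, and a lower value of such a gene was not detectable at this depth. The limit is lower for longer genes. These figures cover counting error only.

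Promoter sequence is shown first, for the genes in which a fixed set of transcription factor motifs was searched. RefSeq promoters (GRCm38.p6, 250 bases before to 50 after a transcript start) were found for 60 of the 75 members. A motif of HNF1, a factor of liver, kidney and gut epithelium, was spelled GTTAATNAT and searched on both strands. It was present in 8 of the 60 members with a promoter (13.3%) and in 0.940% of the 27025 genes with a promoter in the same table. The antioxidant response element, spelled TGACNNNGC and bound by the product of Nfe2l2, was present in 4 of 60 members (6.67%) and in 14% of all. A match is a run of letters and not a shown binding site. The windows below lie outside every annotated exon, in the 5′ to 3′ direction of the gene, with the motif in capitals. They are given so that the letters around the matches can be compared within the Ugt1a and Sult2a families.
Ugt1a1: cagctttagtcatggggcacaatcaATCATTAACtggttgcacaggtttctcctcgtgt
Ugt1a9: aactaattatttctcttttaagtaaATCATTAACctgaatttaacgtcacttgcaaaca
Ugt1a10: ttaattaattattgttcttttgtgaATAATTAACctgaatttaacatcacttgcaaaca
Sult1d1: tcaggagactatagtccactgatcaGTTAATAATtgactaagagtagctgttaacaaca
Sult2a3: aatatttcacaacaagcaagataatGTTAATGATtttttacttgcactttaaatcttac
Sult2a4: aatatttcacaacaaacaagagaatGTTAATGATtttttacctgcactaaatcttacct
Gsta3: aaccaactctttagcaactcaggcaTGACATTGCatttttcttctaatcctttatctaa

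The first 6 windows hold the HNF1 letters, on the reverse strand in the Ugt1a genes, where they read as the reverse complement, and the last holds the antioxidant response element. They are chr1:88211890-88211948 (plus strand), chr1:88070660-88070718 (plus), chr1:88055312-88055370 (plus), chr5:87569052-87569110 (minus), chr7:14123066-14123124 (minus), chr7:13989662-13989720 (minus) and chr1:21240439-21240497 (plus). The Ugt1a9 window lies in an intron of Ugt1a10, and the Ugt1a1 window in introns of the other 8 Ugt1a genes. The Ugt1a9 and Ugt1a10 windows have 40 of 59 bases in common when the motifs are aligned, against 21 of 59 for Ugt1a1 with either. The Sult2a3 and Sult2a4 windows share 47 of 59. Pairs of windows among Sult2a3, Sult2a4, Sult2a5 and Sult2a6 share between 72.9% and 86.4% of bases, so these matches are not separate instances. The same letters stood beside very different levels: Ugt1a9 was 12.5 and 7.92 FPKM in liver, Ugt1a10 at most 0.432 in any library, Sult1d1 up to 203 in kidney, and Sult2a3 and Sult2a4 at most 0.0567 in any library. The other HNF1 matches were in Sult2a5 and Sult2a6, and the other antioxidant response elements in Gstm5, Gstm7 and Mgst1. The HNF4 core CAAAGTCCA was in 1 of 60 members, Sult1b1 (1.67%, all promoters 0.555%). The xenobiotic response element core GCGTG was in 21.7% of members and 35.2% of all, and the TATA box TATAAA in 25% and 15.7%.

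All 4 classes had their highest summed level in liver, which for the MGST class rested on 1 gene, Mgst1. The 22 UGT genes summed to 1899 and 2179 FPKM in liver, 297 and 288 (small intestine), 1288 and 1352 (kidney) and 11.5 and 4.52 (lung). The 23 soluble GST genes summed to 3713 and 4218 FPKM in liver, 2994 and 2647 (small intestine), 936 and 952 (kidney) and 1138 and 1195 (lung). For the 3 MGST genes the sum was 1296 and 1342 FPKM in liver, 422 and 394 (small intestine), 73.4 and 78.8 (kidney) and 165 and 167 (lung). The sum of the 27 SULT genes was 439 and 406 FPKM in liver, 315 and 392 (small intestine), 246 and 212 (kidney) and 72.8 and 56.5 (lung). The classes differed most in lung: the UGT sum there was 8.0 ± 4.92 FPKM (SD, n = 2) against 2039 ± 198 in liver, whereas the soluble GST sum in lung, 1166 ± 40.5, was above that in kidney, 944 ± 11.6. After median-of-ratios scaling this order turned, with 628 in lung and 1117 in kidney. These sums rest on few genes. The highest 2 members made up 71.1% of the UGT sum in kidney (Ugt2b38 and Ugt3a2), 60.3% in liver (Ugt2b5 and Ugt2b36) and 66.4% in small intestine (Ugt2b34 and Ugt2a3). The UGT sums and shares take the listed values of the Ugt1a genes, Ugt2a1 and Ugt2a2, whose exons overlap other genes and whose counting is uncertain. In whole organs, fewer cells of a type and less RNA per cell cannot be told apart.

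**Figure D1:**
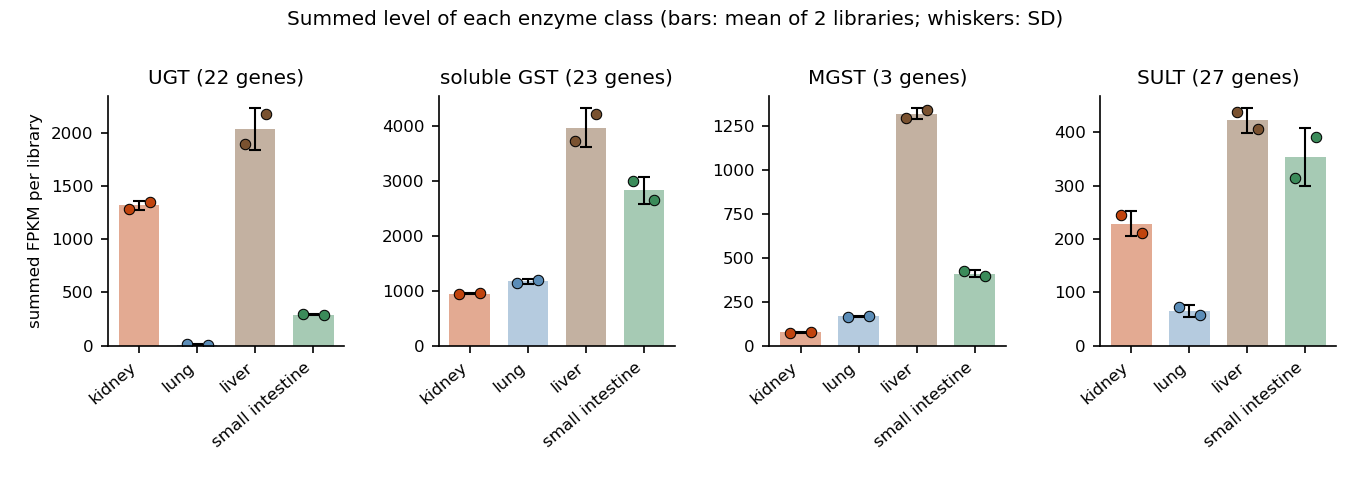
Summed FPKM of each enzyme class (y axes, linear from 0, a separate scale for each class) in each of the 8 libraries, by tissue. Points are libraries, bars the mean of 2 libraries and whiskers the SD. The liver bar is the highest for every class, and the UGT bar of lung, at 8.0, is close to 0.

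Each gene was compared on the scale log2(FPKM + 1) with limma, one tissue against the mean of the other 3. A call needs a p under 0.05, adjusted by Benjamini-Hochberg, and a log2 difference beyond 1 in either direction. This scale understates differences of low genes. The test covered the 16328 genes that reached 1 FPKM in 2 or more libraries, among them 50 members: 17 UGT, 22 soluble GST, 3 MGST and 8 SULT genes. Because a gene can pass this filter through a single tissue, counts over the 50 describe the members that passed and not all 75. In liver, 28 of the 50 were called higher (6.56% of all genes tested) and 9 lower (32.7%). In kidney, 12 were higher (8.65%) and 27 lower (16.1%). In small intestine, 18 were higher (13.7%) and 13 lower (11.3%). In lung, 4 were higher (40.7%) and 28 lower (8.26%). The deposited scale is not centred: the median log2 difference of all genes was -0.72 in liver, -0.01 in small intestine, -0.34 in kidney and 0.82 in lung. The median over the 50 members was 1.44, 0.09, -1.07 and -1.32 in the same order, so the members lay on the other side of the mass of genes in lung and liver.

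Being higher than in each of the other 3 tissues, in 3 separate contrasts, was a stricter call. It was met by 18 members in liver (3.74% of all genes), 9 in kidney (3.68%), 8 in small intestine (5.95%) and 1 in lung (21.1%), or 36 of 50 together (34.4% of all genes for the 4 tissues). The liver set was Ugt1a1, Ugt1a5, Ugt1a6b, Ugt1a9, Ugt2a3, Ugt2b1, Ugt2b5, Ugt2b35, Ugt2b36, Gsta3, Gstm1, Gstp1, Gstp2, Gstt1, Gstz1, Mgst1, Sult1a1 and Sult2a8. The kidney set was Ugt2b37, Ugt2b38, Ugt3a1, Ugt3a2, Ugt8a, Gsta2, Gstm5, Gstt2 and Sult1c2. The small intestine set, with no UGT gene in it, was Gsta1, Gstm3, Gsto1, Mgst2, Mgst3, Sult1b1, Sult2b1 and Sult6b2. Lung had Gstm2 only. The liver set numbered 15 when mitochondrial genes were left out of the libraries, and between 17 and 22 under the other alternatives. When the libraries were rescaled by median-of-ratios size factors, which brought the median of all genes to between -0.14 and -0.02 in every tissue, lung had 0 members called higher and 39 lower, liver 32 higher and 7 lower, and Gstm2 was no longer called higher in lung (log2 difference 0.71, adjusted p = 0.0502). The share of higher calls among the members called in lung went from 12.5% to 0%, and no member is described here as a lung gene. The rescaling also changed the tissue of the highest mean for 8 of the 50 members (Ugt1a6a, Ugt2b34, Gstm2, Gstm6, Gsto2, Gstp3, Gstt3 and Sult5a1), and orders of tissues below are those of the deposited scale where nothing else is said.

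**Figure D2:**
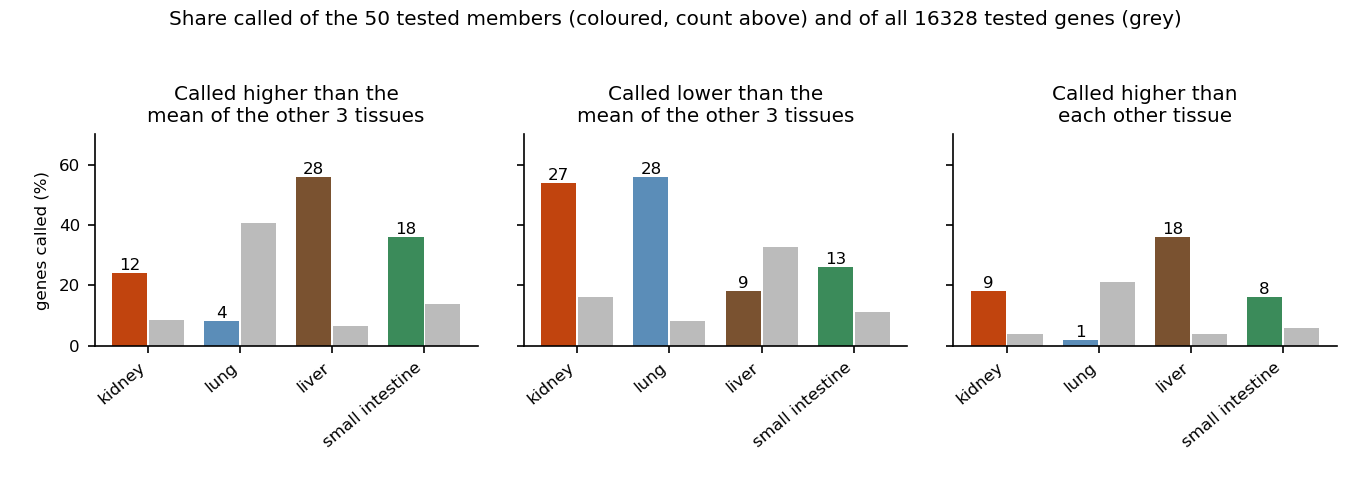
Percent of genes called (y axis, linear from 0) in each tissue for the 50 tested members (coloured bars, number of members above) and for all 16328 tested genes (grey bars), for 3 kinds of call. The coloured bar is above the grey one for higher calls in kidney, liver and small intestine and below it in lung, where 28 members were called lower.

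Among the UGT genes, 13 of 17 tested were called higher in liver (6.56% of all genes tested), 5 in small intestine (13.7%), 6 in kidney (8.65%) and 0 in lung (40.7%). The highest was Ugt2b5 (chr5:87124960-87140318, GRCm38), one of the Ugt2b enzymes, which act on steroids and many drugs. Ugt2b5 was 652 and 784 FPKM in liver, compared with 57.2 and 35.3 (small intestine), 24.9 and 29.9 (kidney) and 1.38 and 0.823 (lung). Its log2 difference in liver from the mean of the other 3 tissues was 5.68 ± 0.21 (SE, adjusted p = 5.55e-07). Both liver libraries were far above the rest, and kidney and small intestine lay between liver and lung. Ugt2b36 had 466 and 555 FPKM in liver, with 9.55 and 9.56 (small intestine), 1.59 and 0.586 (lung) and 0.226 and 0.673 (kidney). In liver it differed from the others by 7.35 ± 0.22 on the log2 scale (SE, adjusted p = 1.89e-07). Ugt2b1 was 276 and 297 FPKM in liver, against 0.597 and 0.188 (lung), 0.125 and 0.24 (small intestine) and 0.0725 and 0.247 (kidney). The difference of liver was 7.86 ± 0.17 on the log2 scale (SE, adjusted p = 6.91e-08). Ugt2b1 was under 1 FPKM in every library outside liver, and Ugt2b36 was still measured in both small intestine libraries. These differences depend on the constant added before the logarithm, and with 0.1 in place of 1 they were 9.84 for Ugt2b1 and 8.20 for Ugt2b36.

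Other Ugt2 genes were shared by liver and small intestine. Ugt2a3 had 102 and 118 FPKM in liver, compared with 46 and 53.3 (small intestine), 0.595 and 0.491 (kidney) and 0.484 and 0.114 (lung). Ugt2b34 was 138 and 151 FPKM in small intestine, with 93 and 98.8 (liver), 5.71 and 4.19 (kidney) and 0.475 and 0.112 (lung). Ugt2b35 had 39.4 and 51 FPKM in liver, against 17.8 and 13.5 (small intestine), 0.183 and 0.024 (lung) and 0 and 0.0516 (kidney). All 3 were called higher in both tissues, and kidney was at most 5.71 FPKM. Ugt2b34 was somewhat higher in small intestine than in liver, with libraries that did not overlap, but the difference (log2 0.59) was below the limit of 1, and after rescaling liver was the higher of the 2.

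Other UGT genes had their highest level in kidney. Ugt2b38 was 493 and 624 FPKM in kidney, compared with 47.9 and 65.6 (liver), 7.8 and 2.9 (small intestine) and 2.06 and 0.468 (lung). Its log2 difference in kidney from the mean of the other 3 tissues was 5.96 ± 0.37 (SE, adjusted p = 1.31e-05). Ugt2b37 had 45.3 and 38.4 FPKM in kidney, with 1.44 and 1.64 (liver), 0.27 and 0.0425 (lung) and 0.113 and 0 (small intestine). The kidney mean of Ugt2b37 was 27.2 times that of liver, and after rescaling the means of kidney and liver were 48.7 and 2.61 FPKM. The Ugt3a enzymes use sugar donors other than UDP-glucuronate. Ugt3a2 was 415 and 344 FPKM in kidney, against 99.3 and 97.1 (liver), 1.32 and 0.415 (lung) and 0.172 and 0.142 (small intestine). In kidney it differed from the others by 6.00 ± 0.19 on the log2 scale (SE, adjusted p = 7.71e-07). Ugt3a1 had 244 and 274 FPKM in kidney, compared with 85.8 and 82.7 (liver), 1.19 and 0.332 (lung) and 0.12 and 0.132 (small intestine). The difference of kidney was 5.57 ± 0.19 on the log2 scale (SE, adjusted p = 8.72e-07). Both were highest in kidney and, like Ugt2b38, also called higher in liver, and neither passed 0.172 FPKM in small intestine. Ugt8a, which adds galactose to ceramide in the making of myelin lipids, was likewise a kidney gene here. Ugt8a was 30.01 and 15.8 FPKM in kidney, with 0.474 and 0.514 (lung), 0.0722 and 0.171 (liver) and 0.0471 and 0.0195 (small intestine). The kidney libraries differed from each other and did not overlap with any other library. Exact permutation tests of 2 libraries against 6, two-sided, cannot go below p = 0.0357, and Ugt3a2, Ugt3a1, Ugt2b38, Ugt2b5 and Ugt2b36 were at that value. The tissue tested was that of the highest mean of each gene, chosen from the same values. Reaching the lowest p is therefore no separate support for these genes.

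The 9 Ugt1a genes, among them Ugt1a1, the enzyme that conjugates bilirubin, lie within a segment of 165 kb on chromosome 1 (GRCm38, 88055388 to 88220002) and share their last exons, each with a first exon of its own. Between 50.3% and 82.7% of the exon length of each is covered by another gene of the cluster or beside it. How reads of the shared exons were counted is not known, and low values are to be read with care. Ugt1a7c had 27 and 19.3 FPKM in kidney, against 14.3 and 14.4 (small intestine), 0.534 and 0.42 (lung) and 0.129 and 0.161 (liver). This was the highest listed value of the group, in kidney and small intestine, and Ugt1a7c was called higher in both. The overlapped share of exon length was 54.6% in Ugt1a7c and 82.7% in Ugt1a1. Listed levels of different Ugt1a genes are therefore not directly comparable. Ugt1a1 was 8.78 and 6.66 FPKM in liver, compared with 2.64 and 3.81 (small intestine), 0.0921 and 0 (lung) and 0 and 0 (kidney). Ugt1a9 had 12.5 and 7.92 FPKM in liver, with 1.37 and 1.33 (small intestine), 0 and 0.0528 (kidney) and 0.0468 and 0 (lung). Ugt1a6b was 8.89 and 9.43 FPKM in liver, against 0.602 and 0.338 (lung), 0.294 and 0.315 (kidney) and 0.0897 and 0.0371 (small intestine). All 3 were higher in liver than in each other tissue, and after liver, Ugt1a1 and Ugt1a9 were next highest in small intestine. Ugt1a5 had 4.11 and 1.89 FPKM in liver, compared with 0.0465 and 0 (lung), 0 and 0 (kidney) and 0 and 0 (small intestine). Ugt1a6a was 1.66 and 1.7 FPKM in small intestine, with 1.47 and 1.62 (liver), 0.335 and 0.067 (kidney) and 0.143 and 0.149 (lung). Ugt1a5 stood above the others only in liver, whereas Ugt1a6a was not called in any tissue. It was called higher in liver with a pseudocount of 0.1, after median-of-ratios and quantile scaling and by limma-voom, and in small intestine under the first and last of these. Of the remaining 3, Ugt1a10 was at most 0.432 and Ugt1a2 at most 0.235 FPKM, and Ugt1a8 was listed at 0 in all libraries.

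Ugt2a1 and Ugt2a2 were also listed at 0 in all libraries. Of their exon length, 98.8% and 94.5% is covered by another gene, mostly each other. Among protein-coding genes of the whole table with 90% or more of the exon length so covered, 176 of 208 (84.6%) were listed at 0 everywhere, against 19.6% of those with no overlap and 17.2% of those with 50% to 90%. Nothing can be said of their level.

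In lung, the UGT values differed between the libraries. Of the 17 UGT genes tested, 15 were higher in lung 1 than in lung 2, 5 reached 1 FPKM in lung 1 and 0 did in lung 2. Markers of other organs moved the same way: Slc34a1 of the proximal tubule was 2.85 FPKM in lung 1 and 0.499 in lung 2, Fabp2 of enterocytes 12 and 2.5, and Alb of hepatocytes 69 and 39. Their part in the lung UGT values was not tested. Over all 50 members, 28 were called lower in lung with both libraries and 28 without lung 1, and the genes behind the counts were not compared.

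**Figure D3:**
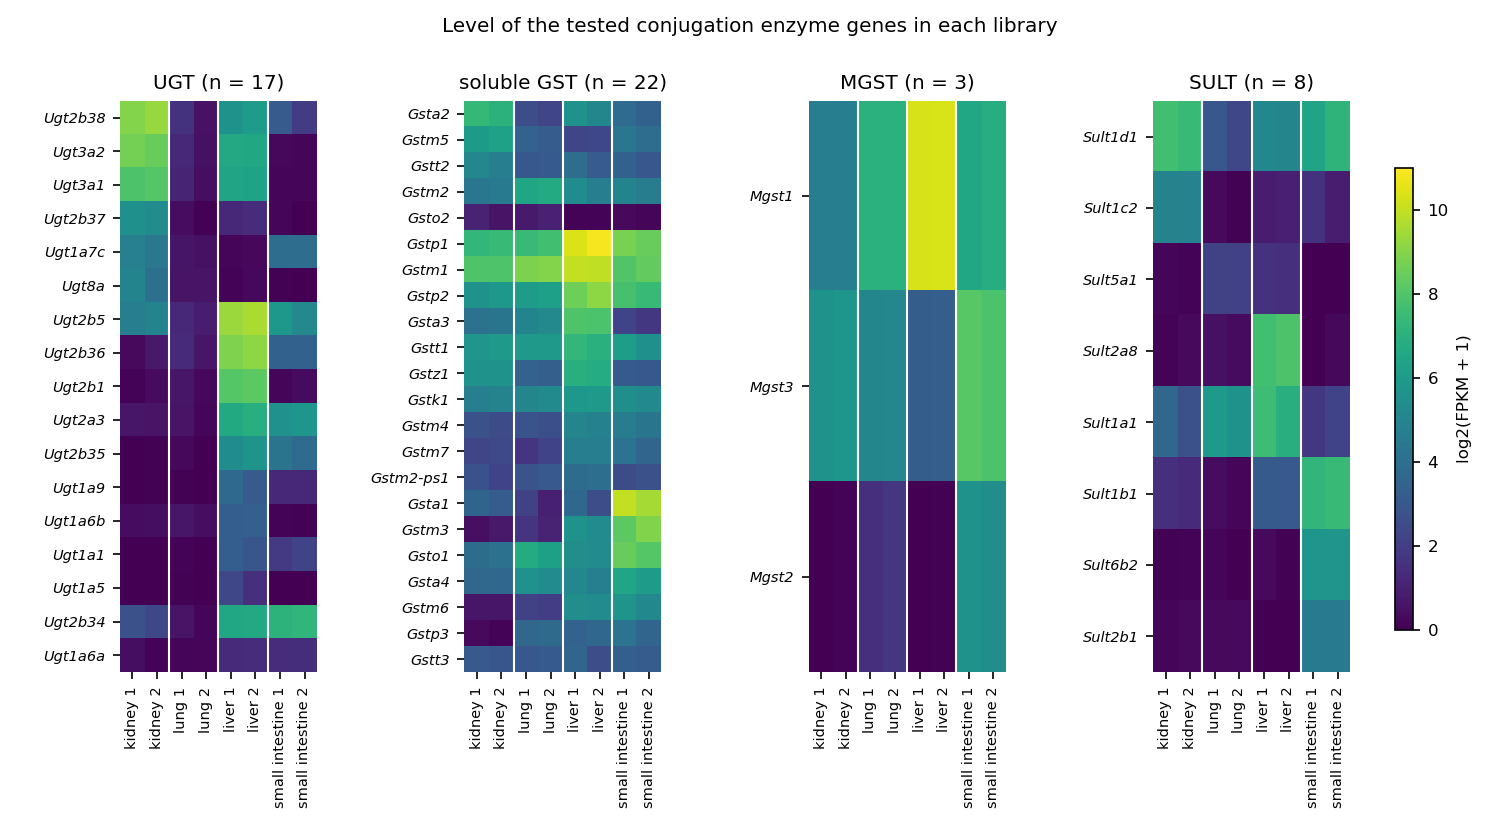
Level of the 50 tested members as log2(FPKM + 1), by colour, in the 8 libraries (columns, 2 per tissue), with 1 panel per class and genes ordered by the tissue of their highest mean. UGT columns of lung are dark throughout, while soluble GST genes such as Gstm1, at 459 and 498 FPKM in lung, are seen in all tissues.

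Soluble GST genes were measured in every tissue, with between 18 and 21 of the 23 at a mean of 1 FPKM or more. Of 22 tested, 12 were called higher in liver (6.56% of all genes), 7 in small intestine (13.7%), 4 in kidney (8.65%) and 2 in lung (40.7%). The pi-class genes Gstp1 and Gstp2 had their highest level in liver. Gstp1 had 1360.3 and 1841 FPKM in liver, against 446 and 352 (small intestine), 170.3 and 202 (lung) and 157 and 176 (kidney). Its log2 difference in liver from the mean of the other 3 tissues was 2.78 ± 0.16 (SE, adjusted p = 7.16e-06). Gstp2 was 382 and 565 FPKM in liver, compared with 223 and 175 (small intestine), 66.8 and 73.2 (lung) and 49.4 and 57 (kidney). Liver was highest for both, and small intestine second, and the libraries of these 2 tissues did not overlap. Gstp1 is known to be more abundant in the liver of male than of female mice, and only males were sequenced. Gstp3 had 17.3 and 11 FPKM in small intestine, with 11.4 and 13.1 (lung), 10.2 and 12.3 (liver) and 0.197 and 0.0815 (kidney). Gstp3 was called higher in lung, liver and small intestine on the deposited scale, and lower in kidney. The lung call was lost after median-of-ratios and quantile scaling, and both the lung and the liver call when mitochondrial genes were left out. Its means after median-of-ratios scaling were 19 FPKM in liver, 13.1 in small intestine, 6.58 in lung and 0.152 in kidney. The lengths behind the deposited values of genes on chromosome 19 differ from the annotation used here, by a ratio of 2.04 for Gstp1, 1.45 for Gstp2 and 1.28 for Gstp3. This limits the comparison of these genes with others, and not of tissues with each other: with the annotated length, Gstp1 would lie below Gstm1 in liver and not above it.

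The alpha class divided between organs. Gsta1 was 1011 and 732 FPKM in small intestine, against 10.8 and 8.22 (kidney), 12.1 and 5.07 (liver) and 3.32 and 0.926 (lung). In small intestine it differed from the others by 7.06 ± 0.38 on the log2 scale (SE, adjusted p = 4.12e-06). Gsta2 had 159 and 132 FPKM in kidney, compared with 47.6 and 32.6 (liver), 13.3 and 9.75 (small intestine) and 5.13 and 3.9 (lung). Gsta1 (chr9:78230656-78242684) was a small intestine gene with a mean 91.7 times that of the next tissue, and Gsta2 was higher in kidney than in each other tissue, 3.63 times liver. After rescaling the means of Gsta1 were 807 FPKM in small intestine and 15 in liver, then the next tissue, and those of Gsta2 were 169 in kidney and 69 in liver. Gsta3 was 250.3 and 234 FPKM in liver, with 30.4 and 34.7 (lung), 16.8 and 18.6 (kidney) and 3.69 and 2.42 (small intestine). Gsta4 had 90.04 and 66.4 FPKM in small intestine, against 46.6 and 38.6 (lung), 34.1 and 25.5 (liver) and 11.4 and 11.9 (kidney). Gsta3, an enzyme that detoxifies the epoxide of aflatoxin in mice, was a liver gene and lowest in small intestine, and Gsta4, which takes 4-hydroxynonenal from lipid peroxidation, was called higher in small intestine, at 1.84 times the mean of lung. After rescaling the means of Gsta4 were 72.5 FPKM in small intestine, 51.2 in liver and 23 in lung. Gsta1 and Gsta2 are near copies: 92.9% of the 31-base words of Gsta1 transcripts occur in other genes, 80.3% in Gm3776 alone, and so do 60.7% of those of Gsta2. Gm3776 was at 77.7 and 52.9 FPKM in small intestine and at most 0.874 in other tissues. Gm10639, which holds 47.5% of the words of Gsta1, was at 90.4 and 71.6 FPKM in small intestine and at 15.8 and 11.7 in kidney, above Gsta1 there. The split of reads among these copies is uncertain.

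The mu-class genes of chromosome 3 differed in the tissue of their highest level. Gstm1 was 1012 and 981 FPKM in liver, compared with 459 and 498 (lung), 257 and 331 (small intestine) and 253 and 250.4 (kidney). Gstm1 was highest in liver, where its call was lost after quantile normalization, and was also the highest soluble GST gene of kidney and lung. Gstm2 had 90.7 and 105 FPKM in lung, with 39.3 and 25 (liver), 30.5 and 24 (small intestine) and 19.2 and 21.6 (kidney). The difference of lung was 1.88 ± 0.19 on the log2 scale (SE, adjusted p = 6.08e-05). Gstm3 was 300.4 and 482 FPKM in small intestine, against 49.7 and 38.6 (liver), 2.27 and 1.17 (lung) and 0.356 and 0.661 (kidney). Its log2 difference in small intestine from the mean of the other 3 tissues was 6.08 ± 0.24 (SE, adjusted p = 9.54e-07). Gstm3 was thus mainly a small intestine gene, with liver next and kidney under 1 FPKM. Gstm5 had 61.9 and 76.5 FPKM in kidney, compared with 19.1 and 14.2 (small intestine), 9.86 and 8.19 (lung) and 3.93 and 4.17 (liver). This kidney gene, whose counterpart in people is best known from brain and testis, was lowest in liver, or in lung after rescaling. Gstm6 was 51.3 and 34.5 FPKM in small intestine, with 42.6 and 38.6 (liver), 3.4 and 3.03 (lung) and 0.61 and 0.581 (kidney). Gstm4 had 31 and 27.7 FPKM in liver, against 24.3 and 18.4 (small intestine), 5.94 and 5.47 (lung) and 5.63 and 4.7 (kidney). Gstm7 was 24.7 and 25 FPKM in liver, compared with 17.3 and 11 (small intestine), 3.93 and 4.37 (kidney) and 2.24 and 3.62 (lung). These 3 were higher in liver and small intestine than in kidney and lung, and the difference of Gstm6 between small intestine and liver was within its spread (log2 difference 0.05 ± 0.20 SE). After rescaling Gstm6 had means of 69.4 FPKM in liver and 39.7 in small intestine. Gstm2-ps1, a processed pseudogene on chromosome 5 that shares 54.1% of its 31-base words with Gstm1, was highest in liver, at 14 and 14.7 FPKM, as Gstm1 was. Part of Gstm5, 13.9% of its exon length, is overlapped by 4933431E20Rik.

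The theta, zeta, kappa and omega classes hold enzymes with special roles. Gstt1 had 156 and 125 FPKM in liver, with 58.6 and 58.3 (lung), 69.2 and 44.3 (small intestine) and 51.6 and 58.2 (kidney). Gstt2 was 33.5 and 25.1 FPKM in kidney, against 14.4 and 8.04 (liver), 9.54 and 7.03 (small intestine) and 7.15 and 7.63 (lung). Gstz1 had 118 and 111 FPKM in liver, compared with 49.1 and 49.8 (kidney), 10.1 and 9.06 (lung) and 7.6 and 7.1 (small intestine). Gstt1, which acts on small halogenated compounds, was above the other tissues in liver, and Gstt2 in kidney. Gstz1, which serves the breakdown of tyrosine as maleylacetoacetate isomerase, was called higher in both liver and kidney. Gsto1 was 346 and 274 FPKM in small intestine, with 109.5 and 75.4 (lung), 42.9 and 38.7 (liver) and 13.9 and 16.2 (kidney). Gstk1 had 57.2 and 59.5 FPKM in liver, against 43.9 and 36.2 (small intestine), 31 and 36.9 (lung) and 25.2 and 29.6 (kidney). Gsto1, a thioltransferase and dehydroascorbate reductase, was a small intestine gene, with lung next on the deposited scale and liver next after rescaling. Gstk1, of mitochondria and peroxisomes, was not called in any tissue, with means between 27.4 and 58.4 FPKM. After median-of-ratios scaling its means were between 18.3 in lung and 99.2 in liver, and it was called higher in liver, as it was after quantile normalization. Gstt3 was also called in no tissue, and Gstt4 did not pass the filter. Gsto2 was highest in lung on the deposited scale, where its lung and kidney libraries overlapped, and in kidney after rescaling. It was called in no tissue on the deposited scale. With a pseudocount of 0.1 and by limma-voom it was called higher in kidney and in lung.

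The 3 microsomal enzymes divided between liver and small intestine. Mgst1 was 1288 and 1333 FPKM in liver, compared with 131 and 131 (lung), 95.6 and 115 (small intestine) and 25.3 and 25.5 (kidney). In liver it differed from the others by 4.19 ± 0.11 on the log2 scale (SE, adjusted p = 1.22e-07). Mgst1 (chr6:138140316-138156755), a protein of the endoplasmic reticulum and outer mitochondrial membrane that is not related in sequence to the soluble enzymes, made up 99.3% of the MGST sum in liver. Mgst3 had 279 and 236 FPKM in small intestine, with 48.1 and 53.2 (kidney), 32.3 and 33.1 (lung) and 8.46 and 9.01 (liver). Mgst2 was 47.3 and 42.7 FPKM in small intestine, against 1.83 and 2.35 (lung), 0.0252 and 0.0624 (kidney) and 0 and 0.0523 (liver). Both were higher in small intestine than in each other tissue and lower in liver. Mgst2, which can make leukotriene C4, was 45 FPKM in small intestine on average and at most 0.0624 in kidney and liver. In a list of 5 related leukotriene and prostaglandin enzymes (Hpgds, Ltc4s, Alox5ap, Ptges and Ptges2), 2 were called higher in lung, where 40.7% of all genes were, and 0 in small intestine.

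Only 8 of the 27 SULT genes passed the filter, and few of these were at high level in any 1 tissue. Sult2a8 had 204 and 243 FPKM in liver, compared with 0.405 and 0.245 (lung), 0.071 and 0.229 (kidney) and 0 and 0.161 (small intestine). The difference of liver was 7.57 ± 0.16 on the log2 scale (SE, adjusted p = 6.91e-08). Sult2a8 (chr7:14410686-14446769), which sulfates bile acids, was a liver gene with no other library above 0.405 FPKM. Sult1a1 was 189.6 and 122 FPKM in liver, with 60.6 and 48.2 (lung), 11.4 and 5.71 (kidney) and 2.48 and 3.63 (small intestine). Its log2 difference in lung from the mean of the other 3 tissues was 1.63 ± 0.28 (SE, adjusted p = 9.66e-04). Sult1a1, the phenol sulfotransferase, was highest in liver and second in lung, where it supplied 84.1% of the SULT sum. After rescaling its difference in lung was 0.47 (adjusted p = 0.164), and the order of the tissues was the same. Sult1d1 had 203 and 175 FPKM in kidney, against 83.8 and 139.8 (small intestine), 34.1 and 31.2 (liver) and 6.87 and 4.03 (lung). Sult1d1, which acts on catecholamines, was called higher in kidney and in small intestine. Its kidney libraries were above all others, but the difference from small intestine did not pass the test (adjusted p = 0.0541, log2 difference 0.79 ± 0.29 SE).

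The small intestine held 3 sulfotransferases above each other tissue. Sult1b1 was 152 and 173 FPKM in small intestine, compared with 7.58 and 7.46 (liver), 1.81 and 1.5 (kidney) and 0.295 and 0.116 (lung). In small intestine it differed from the others by 5.76 ± 0.13 on the log2 scale (SE, adjusted p = 1.88e-07). Sult6b2 had 52.9 and 52.1 FPKM in small intestine, with 0.202 and 0.0448 (liver), 0.0432 and 0.0802 (kidney) and 0.0948 and 0 (lung). Sult2b1 was 21.2 and 22.2 FPKM in small intestine, against 0.207 and 0.224 (lung), 0.106 and 0.205 (kidney) and 0 and 0.0245 (liver). Sult1b1, which acts on thyroid hormones and phenols, was also detected in liver, at 7.58 and 7.46 FPKM, and Sult2b1, which sulfates cholesterol and pregnenolone, was at most 0.224 FPKM elsewhere. Sult1c2 had 29.5 and 28.6 FPKM in kidney, compared with 2.03 and 0.861 (small intestine), 0.768 and 0.944 (liver) and 0.222 and 0.0436 (lung). This was the single sulfotransferase above each other tissue in kidney. Sult5a1 was low throughout and highest in lung. Sult5a1 was 3.31 and 3.41 FPKM in lung, with 2.07 and 1.78 (liver), 0.137 and 0.0915 (kidney) and 0.0242 and 0 (small intestine). The difference of lung was 1.55 ± 0.11 on the log2 scale (SE, adjusted p = 7.78e-06). After rescaling, liver was the highest tissue for Sult5a1 and the call in lung was lost, with a log2 difference of 0.73.

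The 19 other SULT genes were at most 0.512 FPKM in every library, and 11 of them, 6 of these pseudogenes, were listed at 0 throughout. They include Sult1e1, the estrogen sulfotransferase, and Sult2a1 to Sult2a6, steroid enzymes that are known to be far more abundant in the liver of female than of male mice. In the male libraries here, Sult2a2, Sult2a4, Sult2a5 and Sult2a6 were at 0 and Sult2a1 and Sult2a3 at most 0.301 FPKM. Sult2a2 has 74.5% and Sult2a1 55.6% of its 31-base words in common with other genes, so the counting of reads of these copies is uncertain. Their neighbour Sult2a8, with 3.21% of its words in common, was at 204 and 243 FPKM in liver.

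Some genes that lie side by side differed in the tissue of their highest level, and others shared it. A segment of chromosome 5 (GRCm38, 86889767 to 87591594, 702 kb) holds 13 members, and of the 11 that are not listed at 0, 5 were highest in liver, 2 in small intestine and 3 in kidney, with Sult1e1 near 0. After rescaling Ugt2b34 was highest in liver. In order along the chromosome, Ugt2b34 (small intestine and liver) was followed by Ugt2b1, Ugt2b35, Ugt2b36 and Ugt2b5 (liver), Ugt2b37 (kidney), Ugt2a3 (liver), Ugt2b38 (kidney), Sult1b1 (small intestine) and Sult1d1 (kidney). Ugt2b5 and Ugt2b38, highest in liver and in kidney, have 44.9% of the 31-base words of Ugt2b5 in common, so part of the lower level of each in the tissue of the other is uncertain. The 7 Gstm genes within 149 kb of chromosome 3 (107895821 to 108044894) had their highest means in 4 different tissues on the deposited scale, and in 3 after rescaling, when Gstm2 was highest in liver. By contrast Ugt3a1 and Ugt3a2, neighbours on chromosome 15 (9276888 to 9370955), and Gstp1 and Gstp2 on chromosome 19 (4035407 to 4046023) had the same order of tissues within each pair. These pairs also share sequence, 16.5% of the 31-base words of Ugt3a1 with Ugt3a2 and 38.5% of those of Gstp1 with Gstp2.

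**Figure D4:**
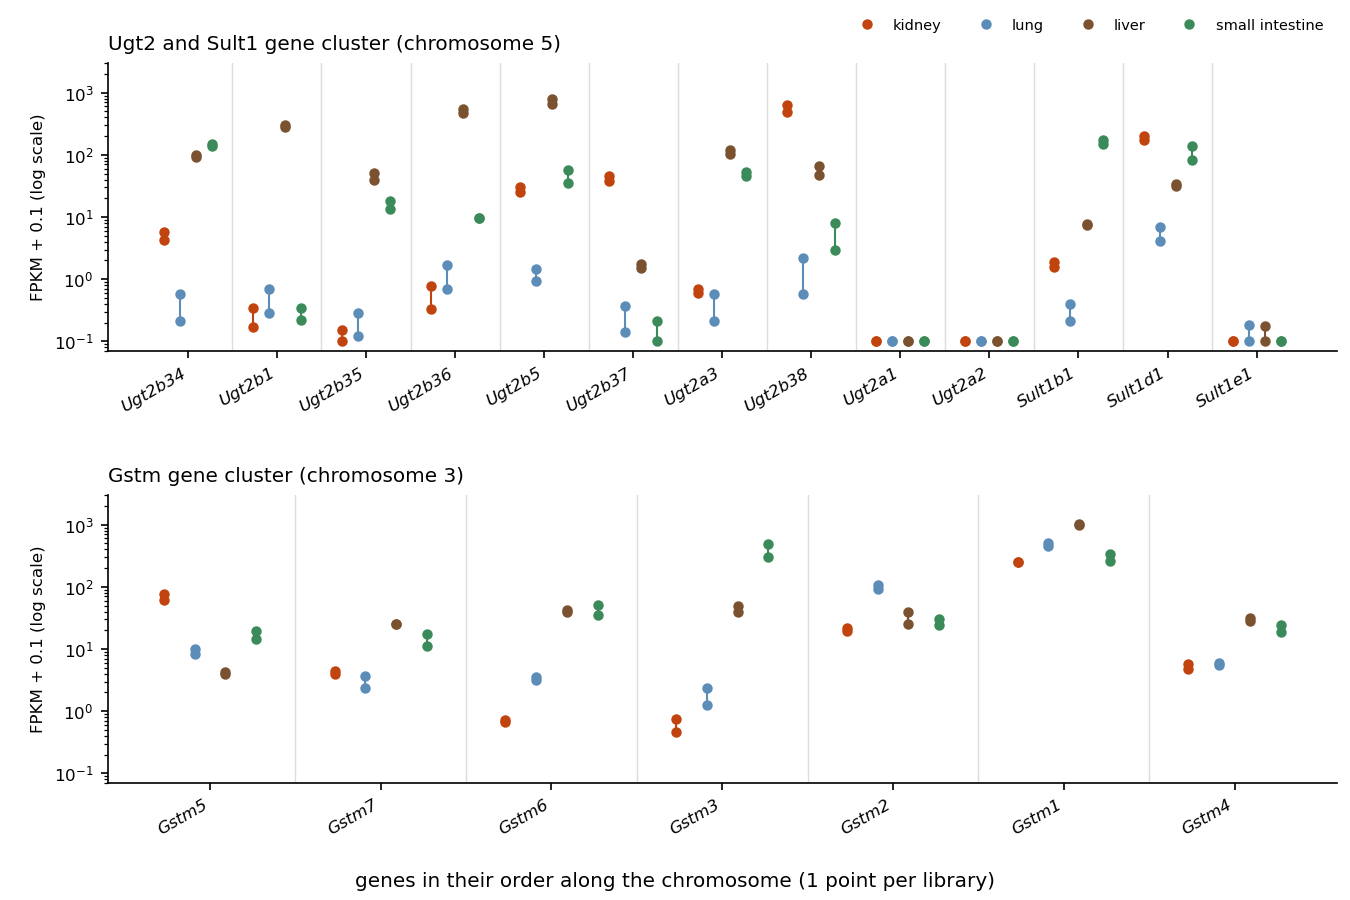
FPKM + 0.1 (y axes, log scale) of members in their order along a cluster of chromosome 5 (upper panel) and of chromosome 3 (lower panel), with 1 point per library coloured by tissue and a line joining the 2 libraries. The highest points are of liver in Ugt2b1 to Ugt2b5, of kidney in Ugt2b37 and of liver again in Ugt2a3, and on chromosome 3 of small intestine in Gstm6 and Gstm3 and of lung in Gstm2.

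Genes that supply the cofactors were described as lists, by counts and with values for the gene that was highest in a tissue. The counts stand beside the shares of all genes tested, of which 6.56% were called higher and 32.7% lower in liver, 13.7% and 11.3% in small intestine, 8.65% and 16.1% in kidney, and 40.7% and 8.26% in lung. Of 5 genes listed for UDP-glucuronate, 3 were called higher in liver (median log2 difference 1.06, all genes -0.72), 1 in small intestine and 0 in kidney, the tissue second in UGT level. In lung 1 was called higher and 1 lower. The former was Gusb, a beta-glucuronidase that cleaves glucuronides and does not supply the cofactor, at 14.4 and 13 FPKM in lung and at most 6.15 elsewhere. Ugp2, which makes UDP-glucose, was 81.4 and 93.6 FPKM in liver, against 42.8 and 32.7 (kidney), 24.7 and 21.3 (lung) and 26.8 and 29.7 (small intestine). Ugdh, which oxidises it to UDP-glucuronate, was 58.1 and 49.1 FPKM in small intestine, against 18.1 and 15.2 (liver), 10.3 and 10.4 (kidney) and 5.34 and 5.93 (lung). The step from Ugp2 to Ugdh thus had its highest levels in different organs.

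For glutathione, 15 of the 16 listed genes were tested. In kidney 10 were called higher and 1 lower, in small intestine 5 and 3, in liver 1 and 5, and in lung 1 and 8. The median log2 difference was 1.36 in kidney against -0.34 for all genes. In liver it was -0.74, near the -0.72 of all genes, and the 5 of 15 called lower there were near the share of all genes. Gclm and Gss of glutathione synthesis were highest in kidney, as were Ggt1, Nat8 and Acy3 of its breakdown and of the mercapturate pathway, in which glutathione conjugates are trimmed to acetylated cysteine conjugates. Acy1 and Dpep1 were also called higher in kidney but had their highest level in small intestine. Dpep1, a dipeptidase, was 85.5 and 116 FPKM in small intestine, against 55.9 and 55.2 (lung), 50.3 and 42.5 (kidney) and 0.615 and 0.662 (liver). Acy3, which removes the acetyl group again, was 1132 and 1419 FPKM in kidney, against 11.7 and 7.43 (lung), 34.6 and 36.1 (liver) and 39.6 and 36.1 (small intestine). Anpep, a brush border peptidase, was 845 and 1128 FPKM in small intestine and at most 23.4 elsewhere. Gclc, the catalytic subunit of the first step of synthesis, was the highest of the list in liver, at 78.8 and 89.2 FPKM. In lung it was 64.5 and 50 FPKM and had the highest mean of the list, 57.3, but its value in lung 2 was below that of Dpep1. Gclc was 64.7 and 50.5 in kidney and 11.1 and 15.6 in small intestine. It was called higher in liver and lower in small intestine.

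For PAPS, all 9 listed genes were tested, with 1 higher and 4 lower calls in liver, 4 and 1 in small intestine, 4 and 1 in kidney, and 0 and 4 in lung. Papss2, 1 of the pair of PAPS synthases, was 227 and 152 FPKM in small intestine, against 71.1 and 41 (kidney), 36.8 and 24.1 (liver) and 10.8 and 8.43 (lung). Bpnt1, which clears the product left after sulfation, was 92.3 and 68 FPKM in kidney, 152 and 129.8 in small intestine, and at most 15.2 in the other 2 tissues. Slc26a1, a sulfate transporter, was 34.3 and 30.8 FPKM in liver and 35.5 and 21.4 in kidney, against at most 0.177 elsewhere. Impad1 was the highest of the list in lung, at 16.1 and 15.8 FPKM, and was called in no tissue. Small intestine, with the second highest SULT sum, thus had the highest sum of the PAPS list, between 355 and 439 FPKM, and liver a lower one, between 90.9 and 107.

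**Figure D5:**
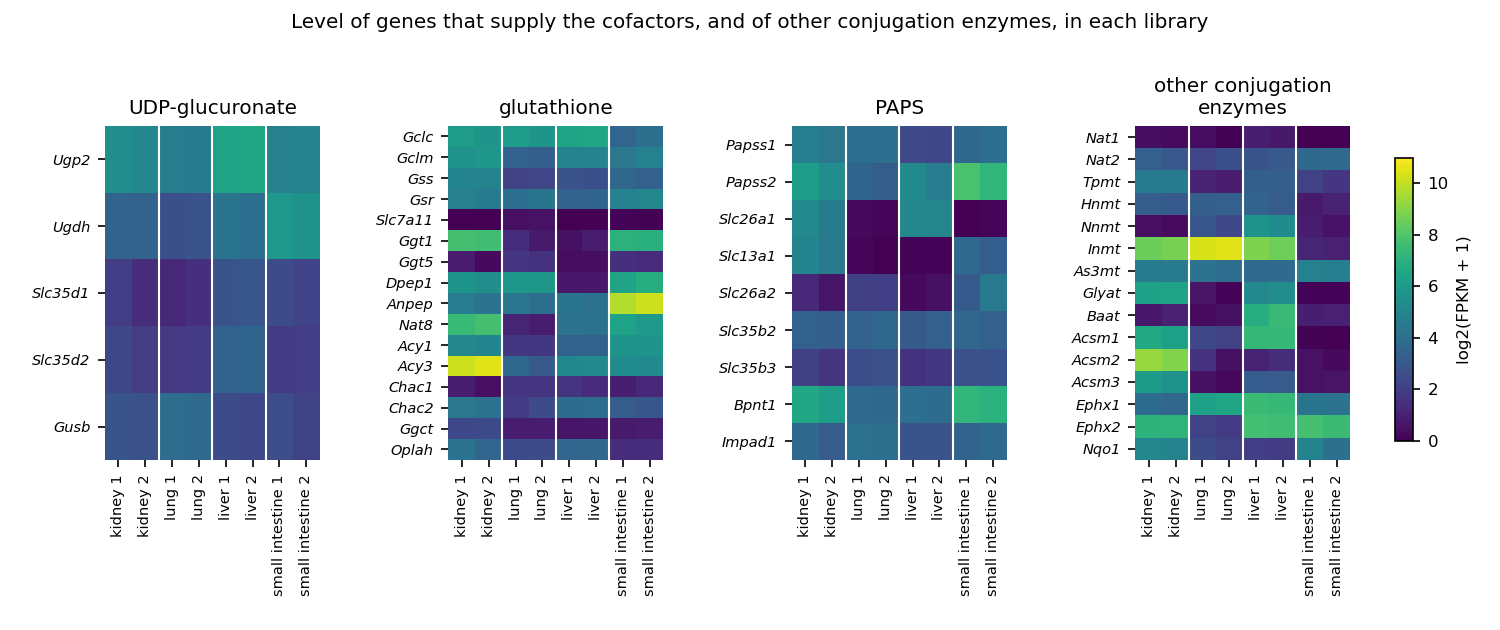
Level as log2(FPKM + 1), by colour, of the genes listed for UDP-glucuronate, glutathione and PAPS and of other conjugation enzymes (panels, the last without 1 gene of its list) in the 8 libraries (columns, 2 per tissue). Acy3 is brightest in kidney, Anpep and Papss2 in small intestine, and Inmt in lung.

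Of 15 tested genes for other conjugation enzymes and for phase I partners on the same list, 8 were called higher and 2 lower in liver (6.56% and 32.7% of all genes), 8 and 3 in kidney (8.65% and 16.1%), 2 and 10 in small intestine (13.7% and 11.3%), and 2 and 9 in lung (40.7% and 8.26%). Inmt, a methyltransferase of indole amines, was 1301 and 1450 FPKM in lung, against 464 and 380.3 (liver), 367 and 433 (kidney) and 1.2 and 0.993 (small intestine). It was called higher in 3 tissues and lower in small intestine, and its lung level stood above that of any phase II member there. Acsm2, which activates acids for conjugation with glycine, was 632 and 476 FPKM in kidney and at most 2.07 elsewhere. Ephx2, an epoxide hydrolase, was the highest of this list in small intestine, at 214 and 177 FPKM, and was 209 and 199 in liver, 137 and 140.5 in kidney, and 3.55 and 2.88 in lung.

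Transcription factors linked to these genes were tested as a list of 13. In liver 6 were called higher and 2 lower (6.56% and 32.7% of all genes), in small intestine 4 and 0 (13.7% and 11.3%), in kidney 3 and 5 (8.65% and 16.1%), and in lung 3 and 6 (40.7% and 8.26%). Hnf4a, a factor of hepatocyte and other epithelial identity, was 93.8 and 62.2 FPKM in kidney, against 61.5 and 60.3 (liver), 58.7 and 79.3 (small intestine) and 0.764 and 0.35 (lung). It was called higher in the first 3 tissues, and lung was the tissue in which 13 of 17 UGT genes were called lower. Cebpa was the highest of the list in liver, at 67.1 and 75.3 FPKM, and in lung, at 40.8 and 48.1, and was 7.48 and 7.5 in kidney and 15.8 and 13.4 in small intestine. These levels are given side by side, and no relation between them and the transferases was tested.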

How the data were processed

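Bulk RNA-seq of 4 mouse tissues, 2 libraries each, was analysed. By the study's methods and the submitters' processing notes, the authors selected reads by sample index with bbduk, mapped them to the mouse genome (GRCm38) with STAR 2.5.3a under default parameters and made FPKM values with the fpkm function of DESeq2. The authors deposited these FPKM values for 52195 genes. The program that counted reads, its use of strand and its treatment of reads with several matches are not given in the sources used here. Tissues and replicate numbers were taken from the sample labels, and every column was matched to a sample.

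The members and gene lists were chosen with earlier results of these data known. Of the symbols, 51847 (99.3%), with all 75 members, were found once in GENCODE M21 (GRCm38), which gave coordinates, exon lengths and the 31-base words shared between transcripts. The table leaves out the length used for each gene. Under GENCODE M21 lengths, 99.5% of values above 0 outside chromosomes 15 to 19 were whole numbers of reads within 0.02 reads. On chromosomes 15 to 19 the share was 55.8%. Depth per library was recovered from these steps (94.5% to 96.1% whole among values below 50 reads). With FPKM as the unit no count test was the main result.

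Values were tested as log2(FPKM + 1) with limma 3.58.1 (lmFit, contrasts.fit, eBayes with a trend) in R 4.3.3, all 8 libraries in 1 fit with tissue as the term, with Benjamini-Hochberg adjustment over 16328 genes. SE and adjusted p are from this fit. With 2 libraries per tissue, the spread was estimated over all tissues. Exact permutation tests over libraries were run for single genes, each for the tissue of its highest mean. Values are named for every member with a mean of 10 FPKM or more in a tissue and for all Ugt1a genes, with full statistics for the 3 largest called differences per tissue and the highest member of each class. Sums over a class are descriptions with no test. Promoters are from RefSeq (GRCm38.p6). Python 3.11.15 with pandas 2.3.3, numpy 2.4.6, scipy 1.17.1 and matplotlib 3.10.9 was used otherwise. Simulated libraries were tested with limma for the contrast of kidney with the other 3 tissues averaged. A gene counted as recovered at an adjusted p under 0.05, with no limit on the log2 difference. Of 192 genes changed 2-fold, 166 were recovered (86.5%, 15533 genes tested, 6 false calls). Of 196 changed 4-fold, 192 were recovered (98%, 15534 genes tested, 7 false calls). A call in the results also needs a log2 difference beyond 1, and a 2-fold change is a difference of 1. These shares and false calls therefore do not describe the calls in the results. Alternatives changed the pseudocount (0.1), the filter, the scaling (median of ratios, quantiles, mitochondrial genes and their chromosome 1 pseudogenes left out), the trend, a replicate block, the test (limma-voom on recovered reads) and the libraries included. Values of 1 gene in the list of other conjugation enzymes are not reported here, and it is part of that list's counts.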

Additional observations from a re-analysis of the deposited data

How the results depend on the processing

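Of the recomputed counts of members, all but 3 stayed within 1.5 times the reported one. The exceptions were the members called higher in lung, 4 on the deposited scale, 0 after median-of-ratios scaling and 2 after quantile normalization, and those higher in lung than in each other tissue, 1 and 0. No member was called in opposite directions by any of the alternatives that kept all 8 libraries. The log2 differences named with full statistics kept their direction in every recomputed value, and 4 lost their call: Gstm2, Sult1a1 and Sult5a1 in lung after median-of-ratios scaling (0.71, 0.47 and 0.73) and Sult5a1 after quantile normalization (0.55).

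Leaving out 1 library at a time gave between 27 and 28 members called higher in liver, between 17 and 18 in small intestine, 12 in kidney and 4 in lung, and between 8 and 9, 13 and 14, 26 and 27, and 28 and 29 lower in the same order. Higher than in each other tissue were between 17 and 19, between 8 and 9, between 8 and 10, and 1.

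Sums follow the scale. After median-of-ratios scaling, the UGT sum was 3456 FPKM in liver, 272 in small intestine, 1565 in kidney and 4.35 in lung. The soluble GST sum was 6723 in liver, 1117 in kidney and 628 in lung, the MGST sum 2243 in liver, 379 in small intestine, 90.4 in kidney and 89.3 in lung, and the SULT sum 721 in liver, 267 in kidney and 34.9 in lung. The soluble GST sum of lung was then below that of kidney. The MGST sum of lung, above that of kidney on the deposited scale, was then close to it. Without the highest member, the UGT sum was 1321 in liver, 148 in small intestine and 761 in kidney, the soluble GST sum 2365 in liver, 1949 in small intestine, 693 in kidney and 688 in lung, the MGST sum 8.76 in liver, 150.2 in small intestine, 25.4 in kidney and 34.8 in lung, and the SULT sum 199 in liver, 191 in small intestine, 39.8 in kidney and 10.3 in lung. The liver lead of the MGST class thus rests on Mgst1. Without the highest member, the SULT sums of liver and small intestine were close, as were the soluble GST sums of kidney and lung.

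A replicate block changed no count of members: 28 were called higher and 9 lower in liver, as without it. The numbers were not taken as pairs, because no label says which libraries share a mouse. The correlation of replicate deviations between tissues lay between -0.22 and 0.05. As a measure over all genes it cannot show whether equal numbers share a mouse. Depth limits genes under about 0.3 FPKM, and overlapping or near-identical genes, Ugt1a, Ugt2a1, Ugt2a2, Gsta1 and Sult2a among them, are limited by the counting.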

Other observations

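Among conjugation enzymes outside the 4 classes, the glycine conjugation gene Glyat and the acyl-CoA synthetase genes Acsm1, Acsm2 and Acsm3 were called higher in kidney. In liver Glyat and Acsm1 were called higher too, whereas Acsm2 was called lower and Acsm3 was not called. Baat, which joins bile acids to taurine or glycine, was called higher in liver alone. Tpmt, a thiopurine methyltransferase, was called higher in kidney only, and Nnmt in liver only. Nqo1, a quinone reductase whose gene is a classical target of Nfe2l2, was called higher in kidney and small intestine, and Nfe2l2 itself in small intestine and lower in kidney and liver. The genes of this paragraph were chosen after their values were seen.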
